A study of Mus musculus with 6 samples.

Results

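The Th2 cytokines and regulators examined here were 10 genes, Il4, Il5, Il13, Il10, Il3, Csf2, Gata3, Stat6, Nfil3 and Ecm1, taken as every probe set of the array annotated with one of these symbols. They held 11 of 22626 probe sets, Stat6 having 2 and every other gene 1, and 10 of the 12393 genes named on the array. The cells were CD4 T cells of C57BL/6 mice, isolated on magnetic beads from spleen and lymph nodes. They were activated in culture over 3 days by anti-CD3 and anti-CD28 (1 µg/mL), with 20 U/mL of interleukin 2 added. One group was from miR-155 knockout mice (KO, 3 arrays) and the other from wild-type mice (WT, 3 arrays), all under the same culture, with 1 mouse per array according to the series description. No cytokine or antibody that steers cells towards a helper subset is named in the culture, and neither the age or sex of the mice nor the extent of the deletion is given in the sources used here.

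Th2 cells are the helper T cells that secrete interleukins 4, 5 and 13, act against worms and drive allergic inflammation. Interleukin 4 acts through its receptor on the transcription factor STAT6, which raises GATA3, and GATA3 then opens and activates the cytokine genes Il4, Il5 and Il13, which lie together on mouse chromosome 11. Earlier work on CD4 T cells without miR-155 described a bias towards Th2 cytokines and named the transcription factor gene Maf as a target, so the comparison asks how this programme differed after activation without the microRNA. MicroRNAs pair through a short seed at their 5′ end with messenger RNAs and lower their stability or translation. The mature microRNA missing from the KO cells is shown with its seed, bases 2 to 8, in capitals (RefSeq, GRCm38.p6, chr16:84714143-84714165, plus strand).
miR-155-5p: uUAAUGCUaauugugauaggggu

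The 250 bases before the start of 5 cytokine genes of chromosome 11 are shown because these neighbours did not all differ in the same direction in the means of all arrays. Sequences are from RefSeq (GRCm38.p6), which held a start for 9 of the 10 genes, all but Il10. Capitals mark 2 motifs on either strand, a GATA motif (the letters GATA after A or T and before A or G) and the NFAT core GGAAA, NFAT being the factor that T cell receptor signals bring to the nucleus.
Il4 (chr11:53618666-53618915, minus strand): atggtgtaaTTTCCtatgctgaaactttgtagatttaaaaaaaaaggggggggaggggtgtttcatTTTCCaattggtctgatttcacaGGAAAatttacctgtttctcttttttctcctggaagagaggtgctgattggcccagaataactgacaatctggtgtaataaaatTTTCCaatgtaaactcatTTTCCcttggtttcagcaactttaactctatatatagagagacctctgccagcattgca
Il13 (chr11:53634703-53634952, minus strand): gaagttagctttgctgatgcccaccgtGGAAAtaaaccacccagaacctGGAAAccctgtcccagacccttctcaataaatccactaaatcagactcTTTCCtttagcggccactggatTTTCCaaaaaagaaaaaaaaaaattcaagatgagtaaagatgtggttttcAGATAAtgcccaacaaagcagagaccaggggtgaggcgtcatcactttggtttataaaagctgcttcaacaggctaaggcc
Il5 (chr11:53720544-53720793, plus strand): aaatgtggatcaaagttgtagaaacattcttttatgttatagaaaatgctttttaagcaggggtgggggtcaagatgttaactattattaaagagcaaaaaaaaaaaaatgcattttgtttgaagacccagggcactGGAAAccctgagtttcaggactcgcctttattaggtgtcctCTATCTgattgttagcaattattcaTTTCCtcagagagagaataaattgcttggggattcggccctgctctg
Csf2 (chr11:54249900-54250149, minus strand): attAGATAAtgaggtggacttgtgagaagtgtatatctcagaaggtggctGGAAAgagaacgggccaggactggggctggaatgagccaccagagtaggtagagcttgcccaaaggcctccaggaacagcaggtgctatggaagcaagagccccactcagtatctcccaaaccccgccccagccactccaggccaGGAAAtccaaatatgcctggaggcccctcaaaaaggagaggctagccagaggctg
Il3 (chr11:54267280-54267529, minus strand): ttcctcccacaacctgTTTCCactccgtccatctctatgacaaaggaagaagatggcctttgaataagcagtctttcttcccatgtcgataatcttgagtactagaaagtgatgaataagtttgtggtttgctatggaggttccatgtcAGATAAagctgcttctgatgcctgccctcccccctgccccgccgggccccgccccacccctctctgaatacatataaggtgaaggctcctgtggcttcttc
The GATA motif was found once in the windows of Il13, Il5, Csf2 and Il3, beginning 81, 72, 247 and 101 bases before the start. It was not among the letters of the Il4 window shown, which precedes the outer of 2 starts that RefSeq gives for Il4, and the window before the inner start held it once, 80 bases away. Of all 32851 windows of this length, 26.5% held a GATA motif and 55.6% the NFAT core. The NFAT core was found 5 times for Il4, 4 times for Il13, 2 times each for Il5 and Csf2 and once for Il3. These are matches of letters and were found both before genes that were higher and before genes that were lower in KO.

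The arrays were checked before the genes were compared. Mir155hg, the transcript that carries miR-155, had means of 3.95 in KO and 7.50 in WT on the log2 scale of the deposited values, and all KO arrays lay below all WT arrays. Cd4 measured 8.89 to 9.25 in KO and 8.83 to 9.23 in WT. Replicate 1 of both genotypes carried Xist, the female-specific transcript, without signal of the Y-linked gene Eif2s3y (3.50 and 3.44), replicate 2 of both carried Eif2s3y (10.41 and 10.51) with Xist low (5.94 and 5.66, against 12.59 or more on the other arrays), and replicate 3 of both carried both. The series description gives 1 mouse per array, which the 2 replicate 3 arrays go against, so results are also given without them. KO replicate 1 stood apart, with a mean score of 1.02 over 16 genes of the hypoxia response, against -0.47 to -0.07 on the other arrays, and of -0.89 over 24 cell cycle genes, against -0.07 to 0.33. Scores are means of values centred on each gene's mean over the 6 arrays.

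Of the 10 genes, 8 had a higher and 2 a lower mean in KO, where 49.2% of all genes tested had a higher one. The same share applies to the direction counts of the lists that follow. Differences are KO minus WT in log2 units, fitted with limma over 9295 genes, and all 10 genes passed the filter on dim genes. None of the 10 passed at a limma adjusted p under 0.05, nor did any of the 9295 genes (0%), the smallest adjusted p of the 10 being 0.631. At an unadjusted limma p under 0.05 stood 3 of the 10 genes, Ecm1 and Nfil3 higher and Il3 lower, where 691 of all genes, or 7.43%, did (3.57% higher and 3.86% lower). In the same 3 genes the arrays of the genotypes did not overlap, as they did not in 12.8% of all genes, KO lying above in 5.86% and below in 6.92%. Il3 had a KO mean of 4.59, under the 4.72 of the dimmest gene kept, and passed the filter through its WT arrays, so its count here is no support. The median difference of the 10 genes was 0.52, against -0.00 over all genes tested, and the median size of the difference was 0.74 against 0.16. The 10 genes also varied more between replicates, with a median SE of 0.43 against 0.17 over all genes.

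**Figure D1:**
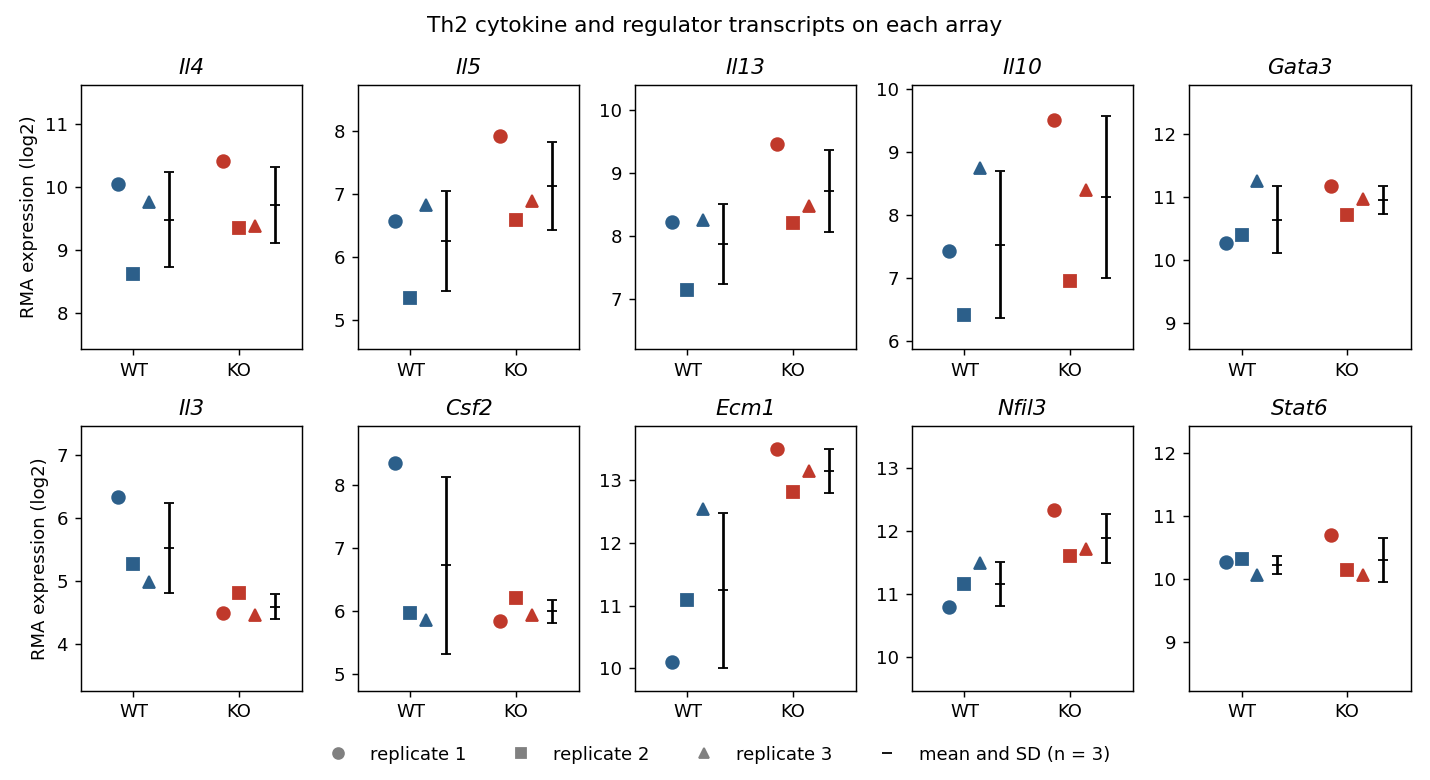
Each panel plots 1 gene, with the deposited expression value (log2) of every array on the vertical axis over the same span of log2 units, WT arrays at the left and KO arrays at the right, symbols giving the replicate number and bars the mean and SD (n = 3). Ecm1 and Nfil3 lie higher on all KO arrays than on any WT array, Il3 lies lower, and Il4, Il5, Il13 and Il10 are lowest in replicate 2 of both genotypes.

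The effector cytokines Il13 and Il5 had higher means in KO. Neither difference had an unadjusted limma p under 0.05 when the 6 arrays were fitted by genotype alone. With the replicate number added as a block both did, as did 9.88% of all genes, and neither passed adjusted (limma adjusted p = 0.478 for both). Il13, whose product acts on epithelium and mucus-producing cells, measured 9.45, 8.21 and 8.48 on KO replicates 1, 2 and 3 and 8.22, 7.14 and 8.26 on WT replicates 1, 2 and 3. WT replicate 2 was the lowest array and KO replicate 1 the highest, and the lowest KO value lay only just below the highest WT value. The difference was 0.84 ± 0.42 (SE), or 1.79-fold, with a 95% interval of -0.17 to 1.85 (limma unadjusted p = 0.0893, adjusted p = 0.631, exact permutation p = 0.3). Il5, the growth and survival factor of eosinophils, measured 7.92, 6.58 and 6.88 in KO, against 6.57, 5.34 and 6.83 in WT. It had the same order of arrays within KO, and its groups overlapped through KO replicate 2 and WT replicate 3. The difference was 0.88 ± 0.49 (SE), or 1.85-fold, with a 95% interval of -0.28 to 2.05 (limma unadjusted p = 0.114, adjusted p = 0.631, exact permutation p = 0.2). Without KO replicate 1 these differences were 0.47 for Il13 and 0.49 for Il5, and without WT replicate 2 they were 0.47 and 0.43, so single arrays held much of each.

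Il4, the cytokine that both defines and induces the subset, differed less. It measured 10.42, 9.35 and 9.39 in KO, against 10.05, 8.63 and 9.77 in WT. Replicate 1 was the highest and replicate 2 the lowest array in both genotypes, and the groups overlapped. The difference was 0.24 ± 0.45 (SE), with a 95% interval of -0.83 to 1.31 (limma unadjusted p = 0.612, adjusted p = 0.859), and it turned to -0.11 without KO replicate 1 and to -0.19 without WT replicate 2. A change of Il4 in either direction therefore could not be read from these arrays.

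Il10, which encodes an anti-inflammatory cytokine made by Th2 and other T cells, varied widely within both genotypes. It measured 9.51, 6.95 and 8.40 in KO, against 7.43, 6.42 and 8.74 in WT. The SD over 3 arrays was 1.28 for KO and 1.17 for WT, larger than the difference of 0.76 ± 0.79 (SE; limma unadjusted p = 0.37, adjusted p = 0.742). Leaving out 1 array moved that difference between 0.15 (without KO replicate 1) and 1.42 (without KO replicate 2), passing 0.20 without WT replicate 2 and 1.36 without WT replicate 3.

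The cytokines Il3 and Csf2, growth factors of myeloid cells and mast cells that several helper subsets make, lay on the other side. Il3 measured 4.49, 4.82 and 4.46 in KO, against 6.33, 5.27 and 4.98 in WT. All KO arrays lay below all WT arrays, by a gap of 0.16 between the nearest, and WT replicate 1 stood above the other arrays. The KO mean of 4.59 was under the 4.72 of the dimmest gene kept. Il3 thus passed the filter through its WT arrays, so this order and the p-values that follow are no support. The difference was -0.94 ± 0.35 (SE), with a 95% interval of -1.76 to -0.11 (limma unadjusted p = 0.0321, adjusted p = 0.631). The exact permutation test gave p = 0.1, its lower limit with 3 arrays a side. The difference was -0.53 without WT replicate 1, and its unadjusted p was above 0.05 without KO replicate 1 or KO replicate 3.

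Csf2, the gene of granulocyte-macrophage colony-stimulating factor, measured 5.84, 6.20 and 5.94 in KO, against 8.35, 5.97 and 5.86 in WT. One array, WT replicate 1, was high and the other 5 lay together. The difference of -0.73 ± 0.65 (SE; limma unadjusted p = 0.297, adjusted p = 0.7) was 0.080 without that array, so it rested on WT replicate 1.

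**Figure D2:**
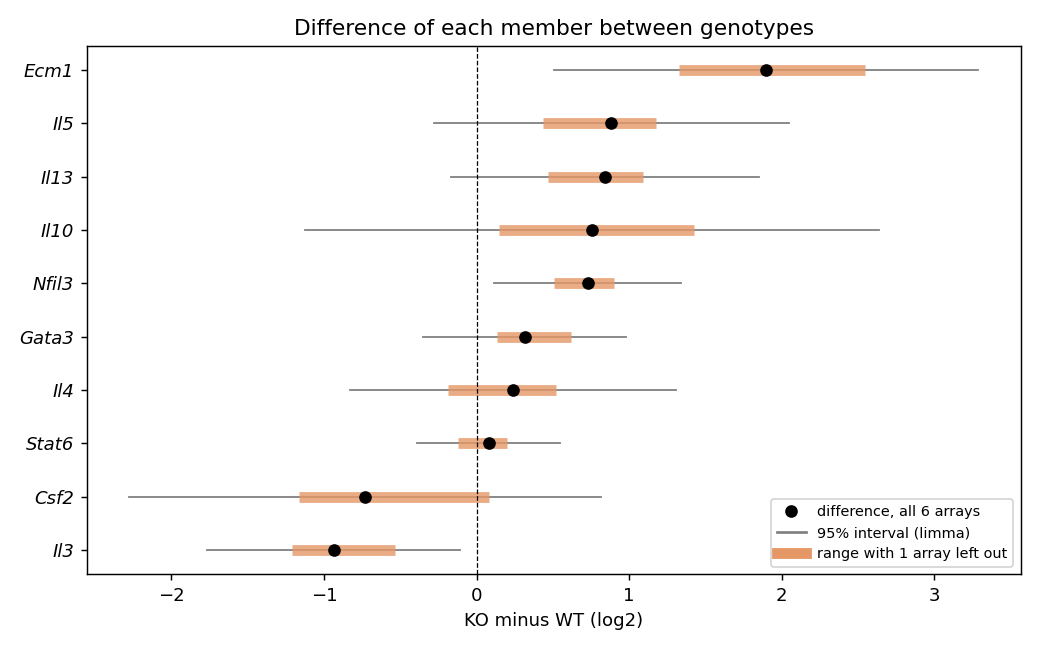
For each of the 10 genes (vertical axis) the difference KO minus WT in log2 units is plotted as a point, with its 95% interval from limma as a thin line and the range of the difference when 1 array is left out as a thick bar. The thick bars of Il4, Stat6 and Csf2 cross 0, whereas those of the other 7 genes do not, and the thin lines of Ecm1, Nfil3 and Il3 stay on one side of 0.

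Ecm1 had the largest difference of the 10 genes. It encodes extracellular matrix protein 1, a secreted glycoprotein reported to control the exit of Th2 cells from lymph nodes. Ecm1 measured 13.48, 12.80 and 13.13 in KO, against 10.10, 11.09 and 12.53 in WT. The KO arrays lay close together and above every WT array, and the WT arrays were spread over 2.44 log2 units. The KO mean was 13.14 ± 0.34 and the WT mean 11.24 ± 1.23 (SD, n = 3 each). The difference was 1.90 ± 0.58 (SE), or 3.72-fold higher in KO, with a 95% interval of 0.51 to 3.29 (limma unadjusted p = 0.0149, adjusted p = 0.631, exact permutation p = 0.1). It ranked 154 among the 9295 genes by p. The difference was 1.32 without WT replicate 1 and 2.54 without WT replicate 3, and its unadjusted p stayed under 0.05 with any 1 array left out.

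Nfil3 encodes a leucine zipper transcription factor that controls cytokine genes in Th2 cells and is needed for the development of innate lymphoid cells. Nfil3 measured 12.33, 11.60 and 11.72 in KO, against 10.80, 11.17 and 11.50 in WT. All KO arrays were higher, by a gap of 0.10 between KO replicate 2 and WT replicate 3. The difference was 0.73 ± 0.26 (SE), or 1.66-fold, with a 95% interval of 0.12 to 1.34 (limma unadjusted p = 0.0265, adjusted p = 0.631, exact permutation p = 0.1). Its unadjusted p was above 0.05 without KO replicate 1, WT replicate 1 or WT replicate 2.

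Gata3 and Stat6, the factors at the head of the programme, differed least beside Il4. Gata3 measured 11.17, 10.72 and 10.97 in KO, against 10.28, 10.39 and 11.26 in WT. WT replicate 3 was the highest of all arrays, and the other WT arrays lay below every KO array. The difference was 0.31 ± 0.28 (SE; limma unadjusted p = 0.299, adjusted p = 0.701), and it was 0.13 without WT replicate 1, 0.19 without WT replicate 2, 0.21 without KO replicate 1 and 0.62 without WT replicate 3. The kept probe set of Stat6 measured 10.70, 10.13 and 10.06 in KO, against 10.27, 10.32 and 10.06 in WT. The difference was 0.08 ± 0.20 (SE), with a 95% interval of -0.39 to 0.55 (limma unadjusted p = 0.704, adjusted p = 0.899). The dimmer probe set of Stat6 differed by 0.06, and both probe sets turned below 0 without KO replicate 1, to -0.12 and -0.23. The STAT6 protein is activated by phosphorylation, which transcript levels do not show.

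Some cytokine genes shared part of their order of arrays between the genotypes. In 4 of the 10 genes, Il4, Il5, Il13 and Il10, replicate 2 was the lowest array in both genotypes, which was so in 15.7% of all genes. The highest array was replicate 1 in both genotypes for Il4. For Il5, Il13 and Il10 it was replicate 1 in KO and replicate 3 in WT. In 8 of the 10 genes KO replicate 1, the array with the raised hypoxia score, was the highest KO array, against 35.7% of all genes. Its part in these differences was not tested, and the differences without it are 1.72 for Ecm1, 0.50 for Nfil3 and -0.89 for Il3. Between the arrays of the same number, which also shared Xist and Y-linked signal, Ecm1 differed by 3.39, 1.71 and 0.60 in replicates 1, 2 and 3. Il5 differed by 1.35, 1.24 and 0.06, Il13 by 1.23, 1.07 and 0.22, and Nfil3 by 1.53, 0.44 and 0.22. KO was thus higher within all 3 numbers in these 4 genes, as it was in 19.6% of all genes, and Il3 was lower in all 3, with differences of -1.84, -0.45 and -0.52, as 24.6% of all genes were. With both replicate 3 arrays left out, the differences were 2.55 for Ecm1, 1.30 for Il5, 1.15 for Il13, 1.31 for Il10, 0.98 for Nfil3, 0.61 for Gata3, 0.55 for Il4, 0.12 for Stat6 and -1.14 for both Il3 and Csf2. Those of Il4, Il10, Gata3, Csf2 and Stat6 were thus over 1.5 times as large as with all arrays. Unadjusted limma p-values under 0.05 were then found for 4 members, Ecm1, Nfil3, Il3 and, unlike before, Gata3, and for 4.79% of all genes, with no member's adjusted p under 0.689. Il3, which passed the filter through its WT arrays, is no support in that count.

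**Figure D3:**
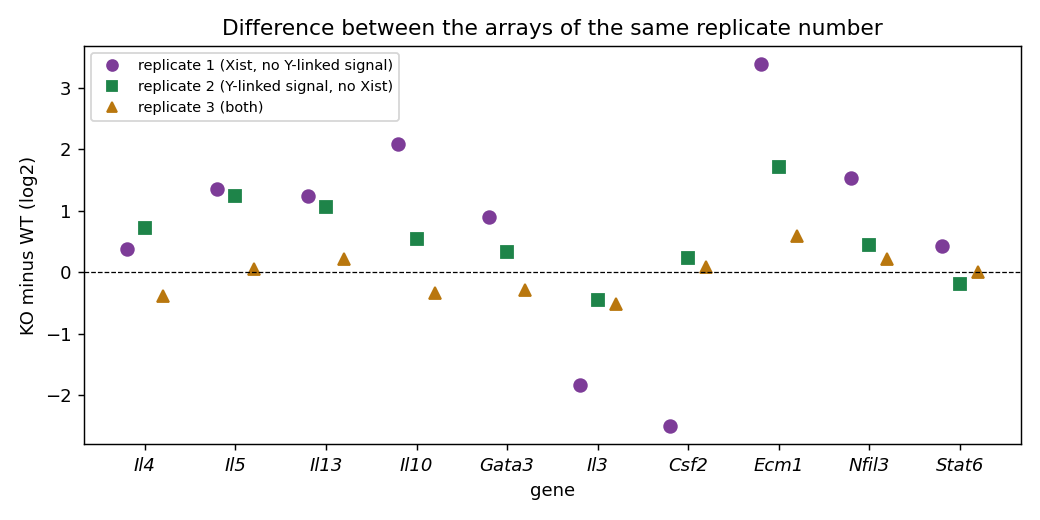
The difference KO minus WT (log2, vertical axis) between the 2 arrays of the same replicate number is plotted for each of the 10 genes, with 1 symbol per number and no error, since each is 1 array against 1. For Ecm1, Il5, Il13, Il10, Gata3 and Nfil3 the replicate 1 pair has the largest difference and the replicate 3 pair the smallest, and for Il3 and Csf2 the replicate 1 pair lies far below the others.

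Il5 and Il13 had nearly the same profile over the 6 arrays. Likeness was measured as the root mean square distance between the values of 2 genes after each was centred on its own mean, over the 6 arrays, and it is a description of these arrays alone. The gene nearest to Il5 among 9294 others was Il13, at a distance of 0.11, where Il5 itself varied about its mean by 0.75. Nearest to Il13 was the nuclear RNA Malat1, also at 0.11, followed by Il5, and Apobr, the gene of a lipoprotein receptor, came next for both. Malat1 measured 13.23, 11.76 and 12.39 in KO, against 11.95, 10.92 and 11.92 in WT. As for Il13 and Il5, KO replicate 1 was its highest and WT replicate 2 its lowest array. Il4 ranked 46 by likeness to Il5, and the genes nearest to Il4 were Ift172, Mmp11 and Wdr78, at 0.21 to 0.23.

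The gene next to Ecm1 on its chromosome was also among those most like it. Nearest to Ecm1 were Lgals3, the gene of galectin 3, at 0.20, Adamtsl4 at 0.23 and the transcription factor gene Hhex at 0.30, where Ecm1 varied about its mean by 1.20 (root mean square). In RefSeq, Adamtsl4 is the adjacent protein-coding gene on one side of Ecm1 and Tars2 on the other. Adamtsl4 measured 10.91, 9.47 and 10.19 in KO, against 7.07, 7.92 and 9.47 in WT, a difference of 2.04 that its likeness to Ecm1 already fixes, so no test is given. Tars2, looked up after these values were seen, differed by 0.45.

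The remaining genes had other nearest profiles. Nearest to Nfil3 were Bach1, a reported target of miR-155, at 0.07, the prostaglandin receptor gene Ptger2 and Wdr81, both at 0.09. Nearest to Il10 was Nucb2 at 0.15, followed by Tmem87a and H2-Q10 at 0.25. Nearest to Csf2 were the proenkephalin gene Penk at 0.25, Edn1 and Scin, with Il3 at rank 5 (0.43). Nearest to Il3 were Irak1bp1, Rai14 and Mns1, at 0.19 to 0.20. Gata3 and Stat6 spanned less than 1 log2 unit over the arrays and were not compared in this way.

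The 5 cytokine genes of chromosome 11 were then set beside the genes between and around them. In RefSeq order these run Septin8, Kif3a, Il4, Il13, Rad50, Il5, Irf1, Slc22a5, Pdlim4, P4ha2, Csf2 and Il3, counting the genes tested. Of the 7 tested genes here that are no member, 2 were higher and 5 lower in KO, and 0 had an unadjusted limma p under 0.05 (7.43% of all genes did). Rad50, a DNA repair gene that lies between Il5 and Il13 and holds control sequences of the locus, differed by -0.09 ± 0.28 (SE). Kif3a, a motor protein gene beside Il4, differed by 0.52 ± 0.49 (SE), and the transcription factor gene Irf1 by -0.13 ± 0.16 (SE). Il13 and Il5 had higher and Il3 had lower KO means within one stretch of the chromosome, and the difference between them was not tested. The lower mean of Csf2 rested on WT replicate 1, without which its difference was 0.080.

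**Figure D4:**
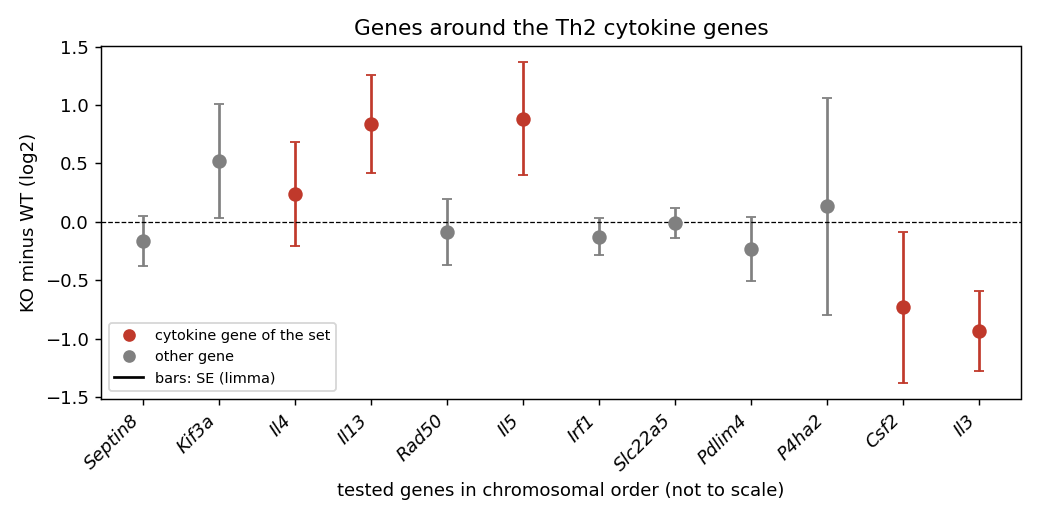
The difference KO minus WT (log2, vertical axis) is plotted with its SE from limma for the 12 tested genes around the Th2 cytokine genes, in chromosomal order and not to scale, cytokine genes in red and other genes in grey. Il13 and Il5 lie highest, at 0.84 and 0.88, Csf2 and Il3 lie lowest, at -0.73 (0.080 without WT replicate 1) and -0.94, and Rad50, between Il13 and Il5, lies near 0.

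The signals that reach these genes were examined through a list of 18 genes of interleukin 4 receptor and STAT signalling, of which 16 were tested. In KO 12 were higher and 4 lower, with a median difference of 0.25, and 0 passed at an adjusted p under 0.05. At an unadjusted limma p under 0.05 stood 2 higher genes, Socs3 and Jak2, and no lower one, where 3.57% of all genes were higher and 3.86% lower at that p. Socs3, a feedback inhibitor of cytokine receptors, measured 11.71, 11.51 and 11.99 in KO, against 9.74, 10.29 and 11.41 in WT, a difference of 1.26. Jak2, a receptor kinase, differed by 0.38. Of the receptors of the 6 member cytokines, 5 of 11 were tested and all 5 had higher means in KO, with a median difference of 0.22 and none at an unadjusted p under 0.05. Il4ra, the receptor chain shared by interleukins 4 and 13, differed by 0.46 ± 0.20 (SE; limma unadjusted p = 0.0613, adjusted p = 0.631), with all KO arrays above all WT arrays, and Il10rb by 0.18. Without KO replicate 1 these were 0.26 and 0.070.

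Among 34 transcription regulators of Th2 genes 32 were tested, 22 higher and 10 lower in KO, with a median difference of 0.13. None passed at an adjusted p under 0.05, and 5 higher and 2 lower genes had an unadjusted limma p under 0.05, where 3.57% and 3.86% of all genes did. Those with the smallest p were Notch2, a receptor that can promote Il4 and Gata3, at -0.95, Bcl6, a repressor of Th2 genes, at 1.59, the AP-1 partner Batf at 0.72 and Cebpb at 0.79. Bcl6 was at 0.93 without WT replicate 1, and Cebpb at 0.46 without KO replicate 1. These values are from the brightest probe set of each gene. With all probe sets of a gene averaged, Notch2 was at -0.44 and Bcl6 at 1.10. Maf, the activator of Il4 reported as a miR-155 target and chosen here after its values were seen, measured 5.85, 5.69 and 6.07 in KO, against 5.50, 5.64 and 5.66 in WT. Every KO array was higher, by little, and the difference was 0.27 ± 0.14 (SE; limma unadjusted p = 0.0894, adjusted p = 0.631), or 0.17 without KO replicate 3.

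Other receptors and products linked to Th2 cells went both ways. Of 22 listed genes 15 were tested, 9 higher and 6 lower, with a median difference of 0.17. At an unadjusted limma p under 0.05 stood Epas1, a hypoxia-regulated transcription factor gene, at 0.98, and, on the lower side, Tnfsf11, a cytokine of the TNF family, at -1.57 and Il9 at -1.20. Il9, the cytokine gene of mast cell growth, measured 5.02, 4.90 and 4.75 in KO, against 7.29, 5.24 and 5.72 in WT. WT replicate 1 was again the high array, as for Il3 and Csf2, and no KO array reached a WT array. The KO mean of Il9, 4.89, lay near the 4.72 of the dimmest gene kept. Without WT replicate 1 its difference was -0.60. The 1 higher and 2 lower genes of 15 compare with 3.57% and 3.86% of all genes.

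Markers of other cells that make Th2 cytokines were examined next. Of 10 matched mast cell and basophil markers 3 passed the filter, Hdc, Gata2 and Mcpt4, and 7 did not. Hdc, the gene of the enzyme that makes histamine, was the brightest and measured 5.83, 7.87 and 7.33 in KO, against 6.80, 7.65 and 7.48 in WT. Its difference was -0.30, and 0.29 without KO replicate 1, and that of the transcription factor gene Gata2 was -0.09. The defining markers Fcer1a, at 3.04 to 3.35, and Mcpt8, at 4.51 to 4.79, taken as such outside the rule for named genes, had means under the 4.72 of the filter in both genotypes. The mean of that list lay between 4.31 and 4.57 in KO and between 4.40 and 4.57 in WT. None of 5 eosinophil markers passed the filter. Of 6 matched markers of group 2 innate lymphoid cells 5 were tested, 3 higher and 2 lower in KO, and Il7r, also a gene of resting T cells, differed by 1.34 (limma unadjusted p = 0.0313, adjusted p = 0.631). The rest of that list, outside the rule for named genes, held Rora at 0.52, which was -0.11 without KO replicate 1, Il17rb at -0.04, Klrg1 at -0.00 and Gata3 itself. Arg1, the gene of arginase 1, did not pass the filter and measured 5.68, 4.64 and 5.00 in KO, against 3.85, 3.62 and 3.92 in WT, every KO array lying higher. That list, which contains Gata3, had scores of 0.67, -0.18 and 0.16 in KO, against -0.44, -0.24 and 0.05 in WT, and its part in the differences of Il5 and Il13 was not tested. In these bulk samples a change in the number of cells making a cytokine and a change in the RNA per cell cannot be told apart.

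General activation did not follow one direction. Of 17 tested activation genes 9 had a higher and 8 a lower KO mean, and the median difference was 0.07. The genes with the smallest p were Cd44 at -0.57, Batf at 0.72, Xbp1, a factor of secretory cells, at 0.36 and the costimulatory receptor Cd28 at 0.67. Without WT replicate 1, Cd44 was at -0.37 and Cd28 at 0.42. In all, 3 were higher and 2 lower at an unadjusted p under 0.05, against 3.57% and 3.86% of all genes. Beside Cd44 the lower ones held Il2, given here outside the rule for named genes. It had the largest difference of that list, -1.82. Il2 measured 6.28, 7.99 and 6.49 in KO, against 10.14, 8.38 and 7.69 in WT, and its groups overlapped. All 24 tested cell cycle genes had lower means in KO, with a median difference of -0.58 and 5 at an unadjusted p under 0.05, where 3.86% of all genes were lower at that p. Those with the smallest p were Bub1 at -0.37, Aurkb at -0.49 (-0.32 without KO replicate 1), Mcm5 at -0.67 and Mcm3 at -0.78. Over the 16 hypoxia response genes, 13 of them higher, the median difference was 0.15, none with an unadjusted limma p below 0.05. Vegfa, at 0.65, was at 0.26 without KO replicate 1, and Ddit4, at 0.52, was at 0.19 without WT replicate 1. KO replicate 1 was the extreme array of both lists, as it was the highest KO array for Il4, Il5, Il13, Il10, Gata3, Ecm1, Nfil3 and Stat6.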

How the data were processed

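The deposited values are log2 summaries which the authors obtained by RMA in affy (per the submitters' processing notes, versions not given there). RMA brings arrays to a common distribution and compresses differences near background. Medians of the 6 arrays were 6.45 to 6.49, and precision is limited by having 3 arrays a group. Gene names came from GEO's platform annotation, leaving out 691 probe sets that list several genes. A gene was read from its brightest probe set by mean, and the dimmest 25% of genes (3098) were dropped. The genotypes were compared in R 4.3.3 by limma 3.58.1 (lmFit, eBayes without trend, two-sided, Benjamini-Hochberg over 9295 genes). The code was tested on simulated data. Permutation tests were exact and two-sided. The limma p-values set each difference against the spread of the arrays within the genotypes. In the fit by genotype alone, that spread includes any differences between replicates with unlike Xist and Y-linked signal. Some listed genes had no match in the annotation and were not analysed here.

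The members, the gene lists and the alternatives were chosen with earlier results of these data known. Named from each list were up to 4 genes with an unadjusted p under 0.05, or otherwise the 2 of lowest p, and the 3 genes nearest in profile to each member spanning at least 1 log2 unit. The lists of mast cell, eosinophil, innate lymphoid, CD4 T, CD8 T, B, NK, macrophage, dendritic cell and neutrophil markers are described by counts. Genes given with values outside this rule are marked as such, except Cd4, Xist, Eif2s3y and the genes of the chromosome 11 stretch that are no member. The same settings were run for the genes named from the other lists. CD8 T, B and NK cell markers had median differences of 0.02, 0.10 and -0.13. Higher in KO were 3 of 5, 4 of 6 and 1 of 3 tested genes, none at an unadjusted limma p under 0.05. Of 9 tested CD4 T cell markers 8 were higher and 1 lower, with a median of 0.21. At that p stood 2 of the 8, where 3.57% of all genes were higher. WT replicate 1 had the lowest CD4 T cell score of all arrays, -0.42, and the highest B cell score, 0.49. The part of cell composition in the differences was not tested. Markers of macrophages, dendritic cells and neutrophils had 3, 1 and 1 tested genes, all higher in KO, with medians of 0.29, 0.17 and 0.49.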

Additional observations from a re-analysis of the deposited data

How the results depend on the processing

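The 10 differences were recomputed under 15 alternatives. Under array weights (statmod 1.5.0) 3575 of the 9295 genes tested, 7 of the 10 members among them, passed at a limma adjusted p under 0.05. The same 7 members and 50.7% of all genes had an unadjusted p under 0.05. The 7 were Ecm1 at 2.02, Il10 at 1.65, Il5 at 1.34, Il13 at 1.17, Nfil3 at 0.58, Gata3 at 0.52 and Il3 at -0.86. Stat6 turned to -0.21 under array weights. That fit gave KO replicate 3 and WT replicate 2 weights of 5.55 and 5.04 and the other arrays 0.27 to 0.58, so it compared chiefly 1 array with 1. Among the 7, Il3 passed the filter through its WT arrays and is no support. On the probe sets taken singly, array weights put those of Stat6 at -0.29 and -0.13, and limma adjusted p-values over the 11 ran from 0.16 for Ecm1 and Nfil3 to 0.652 for Csf2, so the 7 calls were lost there. Under the other 14 alternatives 0 genes passed adjusted, with 276 to 1542 at an unadjusted p under 0.05 (limma).

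With 1 array left out, 1 to 4 members had an unadjusted p under 0.05, against 2.97% to 16.6% of all genes. The 1 was Ecm1 without KO replicate 1 (4.92% of all genes), and the 4 were found without KO replicate 2 (16.6%) and without WT replicate 3 (14.4%). Il3 was in both counts of 4 and was also called without WT replicate 1 or WT replicate 2. Having passed the filter through its WT arrays, it is no support in these counts. In these fits the members' median difference lay between 0.18 and 0.76. The differences ranged from -0.19 to 0.52 for Il4, -1.16 to 0.080 for Csf2, -0.12 to 0.20 for Stat6 and -0.23 to 0.28 for its dimmer probe set, and these 3 genes changed sign. The others kept their sign, with 1.32 to 2.54 for Ecm1, 0.43 to 1.18 for Il5, 0.47 to 1.09 for Il13, 0.15 to 1.42 for Il10, 0.13 to 0.62 for Gata3, 0.50 to 0.90 for Nfil3 and -1.21 to -0.53 for Il3.

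With the replicate number as a block, 4 members had an unadjusted limma p under 0.05, Ecm1, Il13, Il5 and Il3, and 918 of all genes (9.88%), with Ecm1 at 1.90 (adjusted p = 0.478). Nfil3 was not among them, and Il3, which passed the filter through its WT arrays, is no support in that count. Deviations from the group means correlated at -0.04, 0.64 and 0.40 between same-numbered arrays, and KO replicate 1 was most like WT replicate 3, so the numbers were not taken to pair the samples. Same-numbered arrays did share Xist and Y-linked signal, which the fit by genotype alone does not take into account. Dropping genes below the 50% quantile removed Il5, Il3 and Csf2. Among the other genes named, Hdc ranged from -0.73 to 0.29 and Rora from -0.11 to 0.89 with 1 array left out, both turning without KO replicate 1, Rora turned to -0.014 under array weights, and Gata2 to 0.013 with both replicate 3 arrays left out.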
